A study of Mus musculus with 8 samples.

Results

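The Trav genes encode the variable segments of the T cell receptor alpha chain. Every gene of the mouse GENCODE M21 annotation (GRCm38) whose symbol begins with Trav and that lies on chromosome 14 was taken, which gave 128 of 55413 annotated genes and 128 of the 2532 genes of chromosome 14. All lay on the plus strand in a single array at chr14:52427928-53977678, from Trav1 to Trav23. Of these genes, 108 were annotated as TR_V_gene and 20 as TR_V_pseudogene, and their symbols fell into 23 subgroups. The genes were scored against maps of histone H3 with 1, 2 or 3 methyl groups at lysine 9 (H3K9me1, H3K9me2, H3K9me3).

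The maps came from chromatin immunoprecipitation followed by sequencing (ChIP-seq) in wild-type mouse embryonic fibroblasts (MEFs), with 4 groups (input, H3K9me1, H3K9me2, H3K9me3) of 2 replicates each, 8 samples in all. All groups shared 1 genotype, which the study calls E1c, a line grown from 1 sorted MEF clone with a floxed Eset1 (Setdb1) gene and a tamoxifen-inducible Cre. The deposited data were 1 list of enriched regions per mark with no score and no value per replicate, so no SD, n or test between replicates was possible, and the lists do not tell how many reads lay behind a region. They hold no transcript levels, so the fibroblast label could not be checked against marker genes. Of the 21 main chromosomes, 9 were covered to at least 5% in every list, chromosome 14 among them, and the lists covered 11.2% (H3K9me1), 8.71% (H3K9me2) and 11.0% (H3K9me3) of it. Fibroblasts lie outside the T cell lineage and do not join these segments.

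A developing T cell joins one V segment to a J segment, deleting the DNA between them, and splices the joined exon to the constant gene Trac. The RAG recombinase cuts at a recombination signal, a heptamer and a nonamer with a spacer between them, that follows each V segment. Part of the array arose by duplication, and the symbols show it, since many genes with the letter d, with the letter n and with neither letter are copies of one another. Some genes with neither letter, such as Trav1, Trav2 and Trav17 to Trav23, have no lettered copy. Members with dv in the symbol can also be used by the delta chain, whose D, J and constant segments lie downstream. H3K9me2 and H3K9me3 are known as marks of silent chromatin, and H3K9me1 is the first methylation step and is also found at active genes.

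The d and n genes each formed an unbroken block, so that the array divided into a distal unlettered section (Trav1 to Trav6-2, 8 genes), a d unit (Trav7d-2 to Trav15d-3, 39 genes), an n unit (Trav7n-4 to Trav15n-3, 34 genes) and a proximal unlettered section (Trav7-2 to Trav23, 47 genes). The copies can be read in the sequence. Below are the last 40 bases of the V segment and the signal that follows it, read from the RefSeq GRCm38.p6 sequence on the plus strand, with capitals at the positions of the heptamer and the nonamer, which are separated by 23 bases. The Trav12-1 and Trav15-1 copies are shown because all 79 bases were the same in the 3 copies while the marks at their start sites differed, and the Trav13-1 copies because their sequences differed as well.
Trav12-1 (chr14:53538699-53538777): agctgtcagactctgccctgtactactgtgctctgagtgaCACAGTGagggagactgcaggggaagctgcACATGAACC
Trav12d-1 (chr14:52845002-52845080): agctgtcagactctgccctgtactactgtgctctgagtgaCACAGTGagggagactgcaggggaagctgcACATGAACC
Trav12n-1 (chr14:53156049-53156127): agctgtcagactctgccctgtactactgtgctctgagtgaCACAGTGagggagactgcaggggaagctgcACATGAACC
Trav15-1-dv6-1 (chr14:53560208-53560286): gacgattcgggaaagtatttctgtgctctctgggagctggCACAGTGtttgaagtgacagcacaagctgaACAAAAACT
Trav15d-1-dv6d-1 (chr14:52863897-52863975): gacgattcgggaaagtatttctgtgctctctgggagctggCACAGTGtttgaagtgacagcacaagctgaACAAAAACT
Trav15n-1 (chr14:53174857-53174935): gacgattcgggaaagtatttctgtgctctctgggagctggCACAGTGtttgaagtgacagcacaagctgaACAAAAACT
Trav13-1 (chr14:53545486-53545564): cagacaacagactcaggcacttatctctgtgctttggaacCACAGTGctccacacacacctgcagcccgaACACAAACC
Trav13d-1 (chr14:52851827-52851905): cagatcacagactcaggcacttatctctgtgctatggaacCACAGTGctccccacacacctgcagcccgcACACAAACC
Trav13n-1 (chr14:53162871-53162949): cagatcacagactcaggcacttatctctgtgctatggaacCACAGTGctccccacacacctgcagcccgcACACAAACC
Trav13-1 differed from each of its copies at 5 of the 79 bases, and Trav13d-1 and Trav13n-1 were the same. Over all 128 genes, read from the annotated 3′ end, the heptamer matched the consensus CACAGTG in full at 99, of which 91 were TR_V_gene and 8 TR_V_pseudogene, and the nonamer matched ACAAAAACC in full at 4. The median number of matching nonamer bases was 7 of 9.

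A start site was called met when a region of a list covered at least 1 bp within 1 kb of any annotated transcript start (96 genes had 1 annotated start and 32 had 2). H3K9me3 met the start sites of 53 of the 128 Trav genes, H3K9me2 met 34 and H3K9me1 met 21. These are 41.4% (95% Wilson interval 33.2 to 50.1), 26.6% (19.7 to 34.8) and 16.4% (11.0 to 23.8), where the intervals cover counting error only and neighbouring genes often share a region. Over all annotated genes 12.0% of start sites were met by H3K9me3, 11.5% by H3K9me2 and 21.4% by H3K9me1. Over the genes of chromosome 14 the shares were 18.3%, 16.9% and 24.4%, and over the genes of the 9 broadly covered chromosomes 25.3%, 26.4% and 45.6%. For H3K9me3 the interval of the Trav share lay above all 3 backgrounds. For H3K9me2 it lay above those of all genes and of chromosome 14 and held that of the broadly covered chromosomes. For H3K9me1 it held the share over all genes and lay below the other two. The broadly covered chromosomes were not matched to chromosome 14 in coverage. H3K9me1 covered 11.2% of chromosome 14, and the others ranged from 16.9% (chromosome 11) to 56.5% (chromosome 10). For H3K9me2 and H3K9me3 chromosome 14 had 8.71% and 11.0%, chromosome 11 had 6.24% and 8.88%, and chromosome 10 had 59.0% and 58.8%. Shares against this background thus cannot be read at equal coverage. A gene with more annotated starts had more windows that could be met, and the number of starts was not matched between Trav genes and backgrounds. The H3K9me3 share over all Trav genes differed with sequence repetition, which went together with the d and n units. In the 71 start windows with under 50% repeated 100-mers (stretches of 100 bases that occur more than once in the assembly), H3K9me3 met 19 (26.8%, interval 17.9 to 38.1), an interval that held the backgrounds of 25.3% and 18.3%, while H3K9me2 met 22 (30.99%) and H3K9me1 met 16 (22.5%). In the other 57 windows H3K9me3 met 34 (59.6%, 46.7 to 71.4). Of these 57 windows, 27 belonged to d genes and 23 to n genes. Within the d unit H3K9me3 met 17 of 27 such windows (63.0%) and 7 of 12 of the less repeated ones (58.3%). In the n unit it met 15 of 23 (65.2%) and 5 of 11 (45.5%), and among unlettered genes 2 of 7 (28.6%) and 7 of 48 (14.6%).

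Gene bodies gave nearly the same counts. H3K9me3 met 50 bodies (39.1%), H3K9me2 32 (25.0%) and H3K9me1 18 (14.1%), against 15.2%, 14.6% and 26.7% of the bodies of all annotated genes. An overlap of 1 bp sufficed, so a longer body was more easily met. Body lengths were not matched, and these shares cannot be compared as like with like. At least 1 mark met 84 start sites (65.6%), against 28.8% over all annotated genes, many of which lie on chromosomes with few regions. This share was not computed for chromosome 14 or the 9 broadly covered chromosomes. There H3K9me1 alone met 24.4% and 45.6% of start sites. The other 44 start sites had no mark.

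H3K9me3 alone was the commonest state, at 37 start sites, followed by H3K9me2 with H3K9me3 at 14, H3K9me2 alone at 12, H3K9me1 alone at 12 and H3K9me1 with H3K9me2 at 7. H3K9me1 and H3K9me3 met at 2 start sites only. Trav22 carried both over 100% and 73.9% of its start window. Trav11, the V segment of the invariant natural killer T cell receptor, was the single gene with all 3 marks, which covered 90.1% (H3K9me1), 52.6% (H3K9me2) and 37.5% (H3K9me3) of its start window. The H3K9me3 region there was only 0.75 kb wide, and 93.5% of the 100-mers of the window were repeated. In 750 bp bins over the array, 4.30% of the bins with H3K9me3 also had H3K9me1, and 30.1% also had H3K9me2. Of the bins with H3K9me1, 44.7% also had H3K9me2 and 17.8% also had H3K9me3.

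The marks were placed differently along the array. H3K9me1 met 20 of 47 start sites in the proximal unlettered section (42.6%, interval 29.5 to 56.7), 1 of 34 in the n unit (2.94%), 0 of 39 in the d unit (interval up to 8.97%) and 0 of 8 in the distal section (up to 32.4%). H3K9me3 met most in the d and n units and fewest in the proximal section. It met 24 of 39 start sites in the d unit (61.5%, interval 45.9 to 75.1), 20 of 34 in the n unit (58.8%, 42.2 to 73.6), 3 of 8 in the distal section (37.5%, 13.7 to 69.4) and 6 of 47 in the proximal section (12.8%, 5.98 to 25.2). The intervals of the d and n units overlapped neither with that of the proximal section for H3K9me3 nor for H3K9me1. H3K9me2 met 2 of 8, 8 of 39, 9 of 34 and 15 of 47 start sites from the distal to the proximal section, with intervals that all overlapped.

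**Figure D1:**
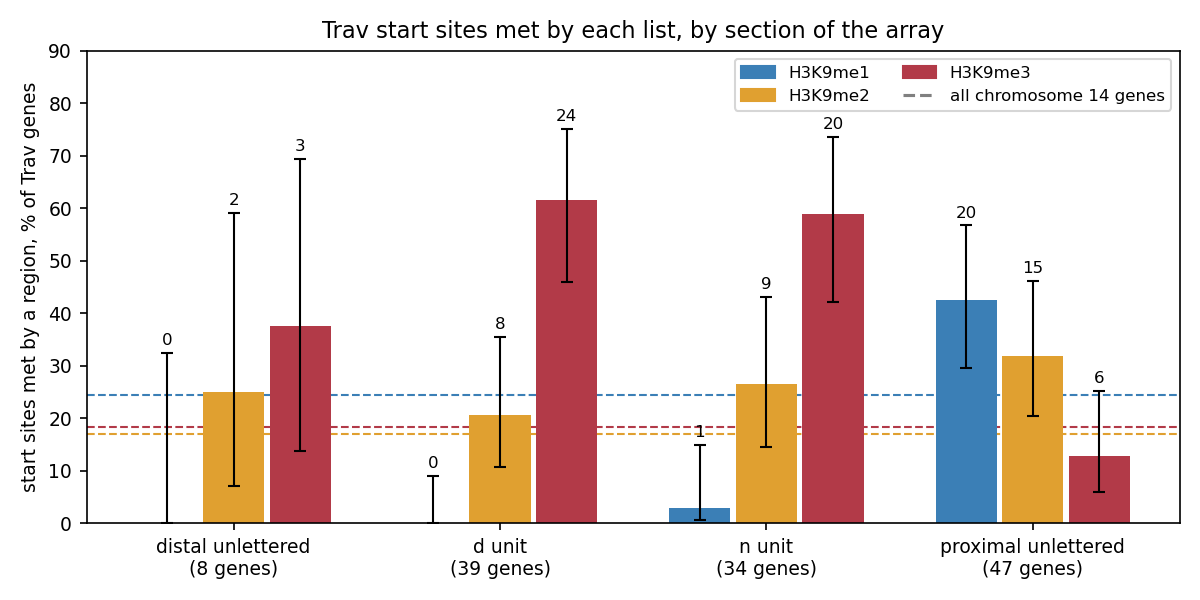
Share of Trav start sites met by each list (y axis, % of the genes of a section) in the 4 sections of the array (x axis), with the number of genes met above each bar, 95% Wilson intervals as error bars and, as dashed lines in the colour of the mark, the share over all chromosome 14 genes. H3K9me3 met 24 and 20 genes of the d and n units and 6 of the proximal section, and H3K9me1 met 0, 1 and 20.

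Coverage of bases showed the same arrangement. Over the array with 200 kb on each side, H3K9me3 covered 32.8% of the bases in 72 regions, H3K9me2 24.1% in 85 regions and H3K9me1 12.2% in 52 regions. Over the array alone the shares were 39.4%, 24.5% and 9.50%. Counting only bases whose 100-mer occurs once in the assembly, the shares with flanks were 24.8%, 27.98% and 16.4%, so that H3K9me2 then ranked above H3K9me3. In the flank before Trav1 they were 10.9%, 29.2% and 25.8%, and in the flank after Trav23 they were 3.38%, 16.4% and 19.4%, so that H3K9me3 coverage was higher inside the array than in either flank and H3K9me1 coverage lower. By section, H3K9me3 covered 45.8% of the distal unlettered section, 54.0% of the d unit, 52.4% of the n unit and 19.9% of the proximal section. H3K9me1 covered 3.52%, 0%, 1.25% and 22.9% in the same order, and H3K9me2 covered 41.7%, 10.6%, 16.8% and 30.4%, with its lowest shares in the duplicated units. No mark covered 43.5% of the 750 bp bins of the array.

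The longest stretch of the array without H3K9me1 ran for 740.25 kb, from Trav3-1 to Trav6n-7 (chr14:52579501-53319750), and held 72 Trav genes. Of their start sites 45 were met by H3K9me3 and 14 by H3K9me2. The longest stretch without H3K9me2 was 149.25 kb, with 14 genes from Trav4d-4 to Trav6n-6, 7 of them met by H3K9me3 at the start site. The longest stretch without H3K9me3 was 108.75 kb and held 4 genes of the proximal section, Trav18 to Trav21-dv12, of which 2 had H3K9me1 and 2 had H3K9me2 at the start site. The widest H3K9me3 region, of 48 kb, lay in the d unit (chr14:52857001-52905000) and took in Trav15d-1-dv6d-1, Trav3d-2, Trav9d-2 and Trav4d-3. The next widest, of 34.5 kb (chr14:52667251-52701750), ran from the distal section into the d unit and took in Trav6-2 and Trav7d-2. A region of 33.75 kb in the n unit (chr14:53187001-53220750) took in Trav3n-2, Trav9n-2 and Trav4n-3, the n copies of 3 genes of the 48 kb region. The widest H3K9me1 region, of 18.75 kb, lay in the proximal section (chr14:53530501-53549250) and took in Trav7-5, Trav12-1 and Trav13-1. The widest H3K9me2 region, of 24.75 kb, also lay in the proximal section (chr14:53435251-53460000) and took in Trav7-3 and Trav6-4.

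**Figure D2:**
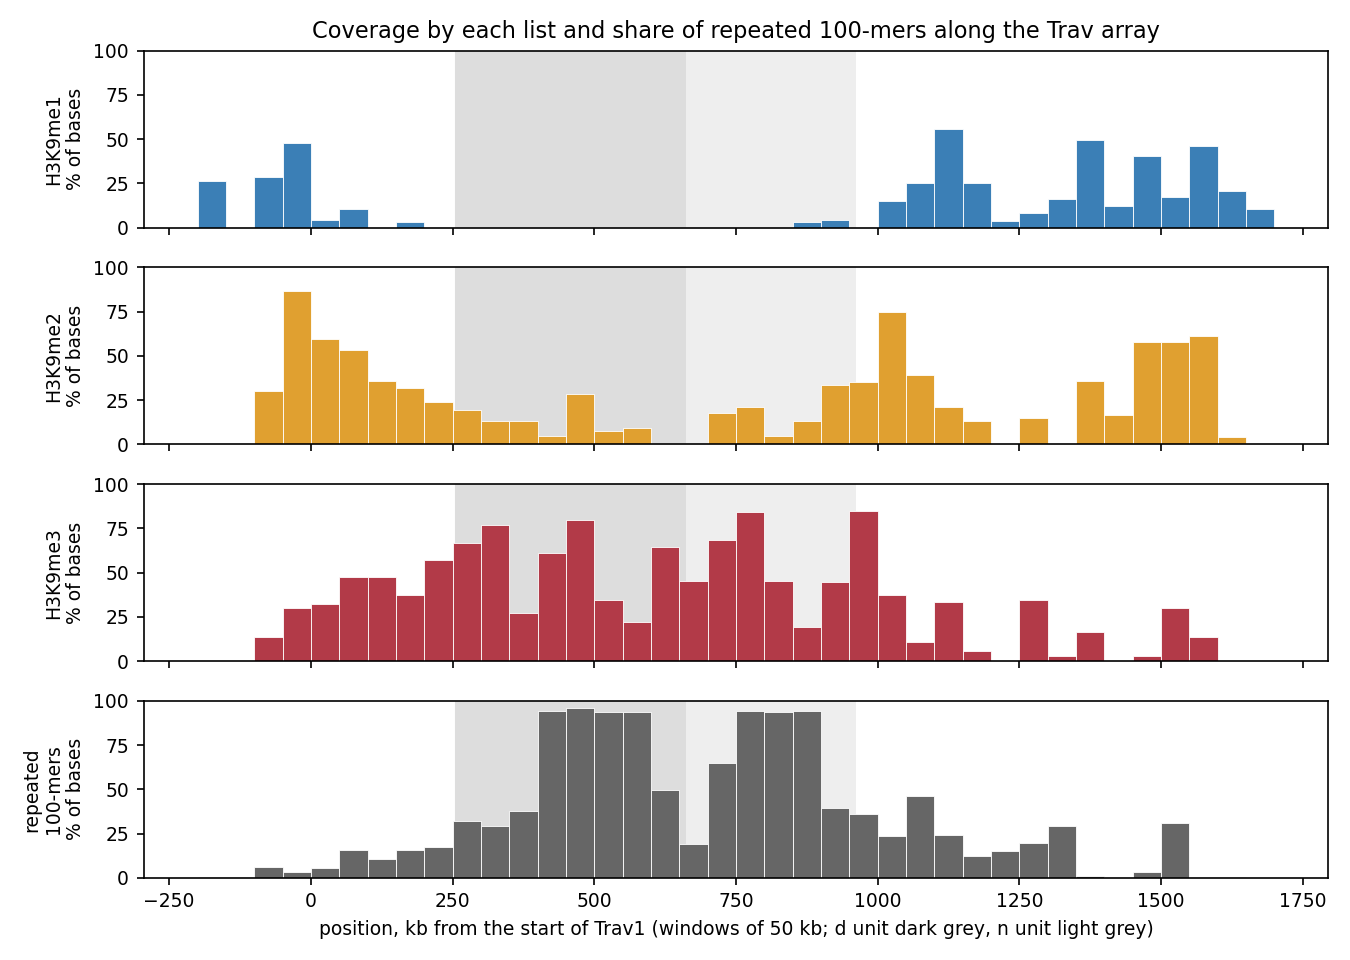
Share of bases covered by each list and share of repeated 100-mers (y axes, % of bases) in consecutive 50 kb windows (x axis, kb from the start of Trav1). H3K9me1 is at 0% across the d unit. H3K9me3 reaches 84.6% in the window from 950 to 1000 kb, most of which lies in the proximal section, beyond the end of the n unit at 962.7 kb. Inside the n unit it reaches 84.1%, from 750 to 800 kb. Repeated 100-mers exceed 90% in 4 windows of the d unit and 3 of the n unit.

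Copies of the same gene were then compared. In 31 cases a gene was held as an unlettered, a d and an n copy, and the unlettered copy lay in the proximal section. H3K9me1 met the start site of 14 unlettered copies, 0 d copies and 1 n copy. H3K9me3 met 2 unlettered copies, 18 d copies and 18 n copies, and H3K9me2 met 5, 6 and 8. In 11 cases H3K9me3 was at both the d and the n copy and not at the unlettered one. The number of such cases that the separate shares of the 3 copies would give was not computed. Only 4 of the 31 had the same state in all 3 copies, and in those 4 (Trav4-4, Trav5-4, Trav10 and Trav15-2) no copy had a mark. The recombination signal was the same base for base in all 3 copies in 14 of the 31 cases.

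**Figure D3:**
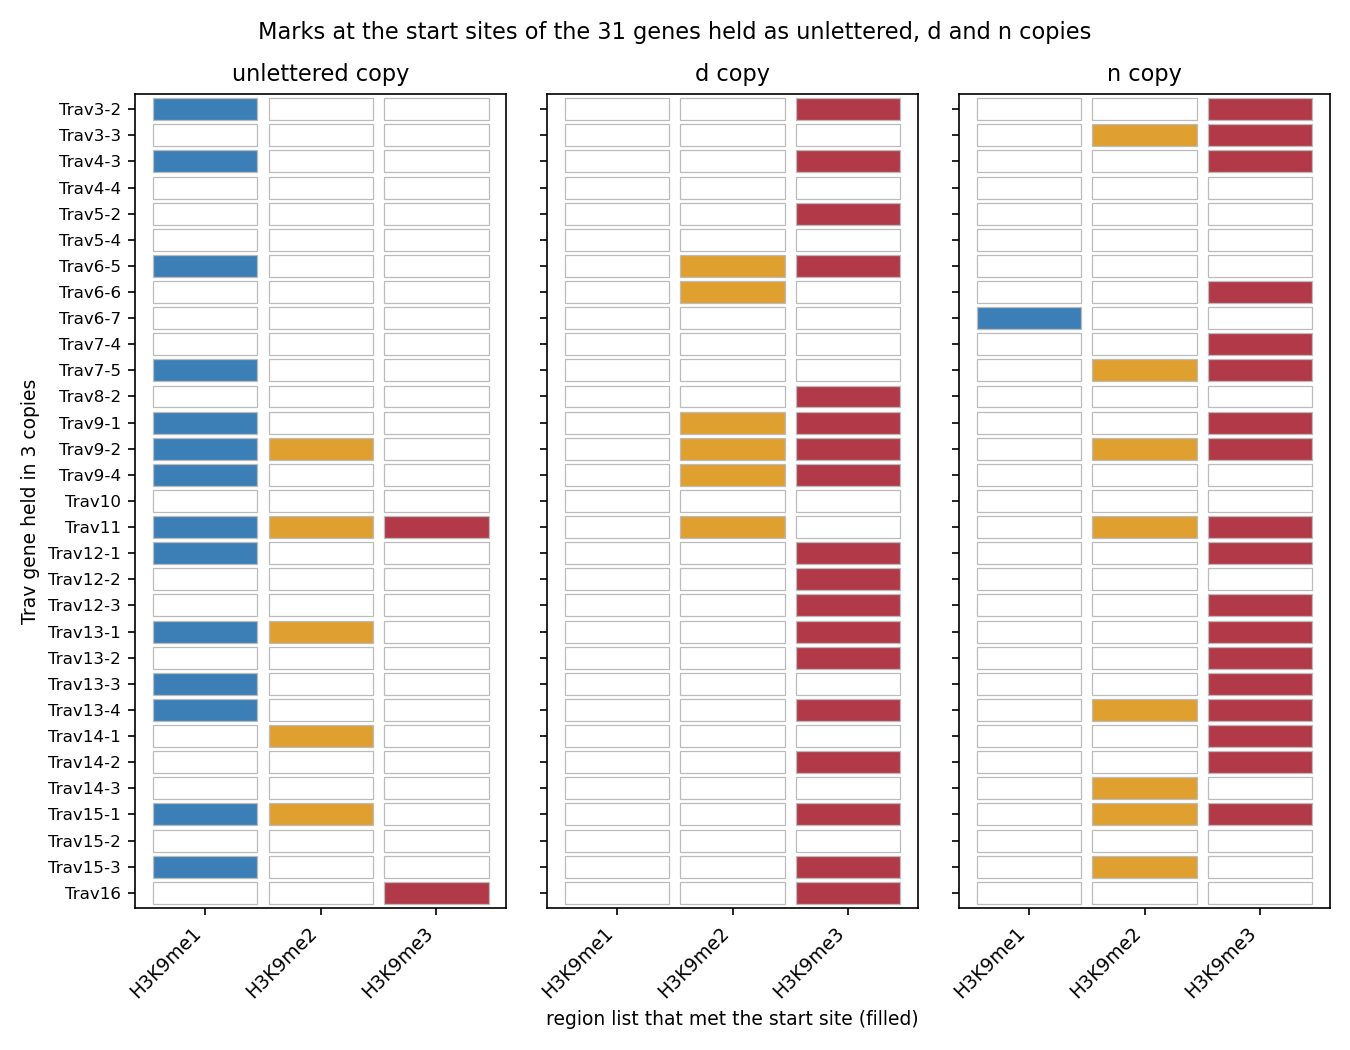
Marks at the start sites of the 31 genes held in 3 copies (rows), with 1 panel for the unlettered, d and n copy and a filled cell where a list met the start site. H3K9me1 fills 14 cells in the unlettered panel, 0 in the d panel and 1 in the n panel, and H3K9me3 fills 2, 18 and 18.

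In 8 of the 31 cases the unlettered copy had H3K9me1 without H3K9me3, and both other copies had H3K9me3 without H3K9me1. These were the copies of Trav3-2, Trav4-3, Trav9-1, Trav9-2, Trav12-1, Trav13-1, Trav13-4 and Trav15-1, which were chosen after their values were seen. How many such cases the separate shares of the copies would give was not computed either. At Trav12-1 H3K9me1 covered the whole start window (100%) and the nearest H3K9me3 region was 17.2 kb away. At Trav12d-1 H3K9me3 covered 100% of the window and the nearest H3K9me1 region was 264.0 kb away, and at Trav12n-1 H3K9me3 covered 92.5%. The 3 copies share the whole printed sequence, and over 2 kb around the 3′ end Trav12d-1 and Trav12n-1 were 100% identical and Trav12-1 was 90.1% identical to each. At Trav13-1 both H3K9me1 and H3K9me2 covered 100% of the window, and at Trav13d-1 and Trav13n-1 H3K9me3 covered 100%. At Trav15-1-dv6-1 H3K9me1 covered 100% and H3K9me2 55.9%. At Trav15d-1-dv6d-1 H3K9me3 alone covered 100%, and at Trav15n-1 H3K9me2 and H3K9me3 each covered 100%. At Trav4-3 H3K9me1 covered 53.9%, while H3K9me3 covered 100% at both Trav4d-3 and Trav4n-3.

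The d and n copies were the most alike in sequence, with a median identity of 98.9% over 2 kb in 33 pairs (60.8 to 100%), against 94.1% between unlettered and d copies (37 pairs, 80.9 to 99.7%) and 91.8% between unlettered and n copies (32 pairs, 60.7 to 99.4%). Their H3K9me3 state was the same in some pairs and differed in others. H3K9me3 met 61.5% of all d and 58.8% of all n start sites, and the agreement that these shares alone would give was not computed. Of the 33 pairs, 13 had H3K9me3 at both copies, 6 at neither and 14 at one of them. For 37 unlettered and d pairs the counts were 2, 12 and 23, and in 20 of those 23 the d copy carried the mark. For 32 unlettered and n pairs they were 1, 13 and 18, and in 17 of the 18 the n copy carried it.

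How far reads can be placed in the duplicated units bears on these values. Repeats of a 100-mer were counted on both strands. The median share of repeated 100-mers in the start window was 90.3% in the d unit, 90.5% in the n unit, 11.7% in the proximal section and 0% in the distal section. It was 88.4% over the 53 start sites met by H3K9me3, 24.9% over the 21 met by H3K9me1, 25.2% over the 34 met by H3K9me2 and 28.3% over the 44 with no mark. How reads with several matches were placed was not stated. In start windows with under 50% repeated 100-mers, H3K9me3 met 12 of 23 d and n genes (52.2%, counting 7 of 12 in the d unit and 5 of 11 in the n unit) and 7 of 48 unlettered genes (14.6%), and H3K9me1 met 0 of 23 and 16 of 48 (33.3%). For H3K9me3 the intervals in these windows were 31.95 to 80.7% for the d unit, 21.3 to 72.0% for the n unit and 7.25 to 27.2% for unlettered genes, so that only those of the d unit and the unlettered genes did not overlap. For H3K9me1 the intervals of the d unit (up to 24.2%) and the n unit (up to 25.9%), each taken separately, both overlapped that of the unlettered genes (21.7 to 47.5%). The unlettered genes here took in the 8 distal genes, of which H3K9me1 met 0, while the contrast above used the proximal section alone. In these windows no interval was computed for the proximal section alone or for the d and n units together, so the overlap does not show that the H3K9me1 contrast was lost. The part of read placement in the difference between units was not tested.

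In 7 pairs of d and n copies the whole start window of 2001 bases was the same base for base, within identical stretches of 2.56 to 7.13 kb. In 4 of these pairs (the copies of Trav4-3, Trav9-2, Trav9-3 and Trav12-1) both copies had the same state, with H3K9me3 in each. At Trav9d-3 a region of 9.75 kb covered 100% of the window, while at Trav9n-3 a region of 0.75 kb covered 37.5%. With regions of at least 2 kb only, Trav9n-3 would not be met, and this pair would differ. In the other 3 pairs, the copies of Trav12-2, Trav5-2 and Trav6-7, the state differed. The sequences of Trav12-2 and Trav6-7 copies are shown because the d and n copies cannot be told apart from reads within the window. Those of Trav5d-2 and Trav5n-2 are not printed, since only 1 of 9 bases matched at the nonamer position of each.
Trav12d-2 (chr14:52916387-52916465): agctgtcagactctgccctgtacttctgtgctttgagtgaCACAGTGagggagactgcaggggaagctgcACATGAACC
Trav12n-2 (chr14:53227361-53227439): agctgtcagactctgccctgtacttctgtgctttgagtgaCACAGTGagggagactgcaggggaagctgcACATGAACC
Trav6d-7 (chr14:53008059-53008137): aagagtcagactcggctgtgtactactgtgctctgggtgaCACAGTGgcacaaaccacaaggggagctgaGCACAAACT
Trav6n-7 (chr14:53319245-53319323): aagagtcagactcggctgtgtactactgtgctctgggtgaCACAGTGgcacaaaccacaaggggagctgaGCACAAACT
H3K9me3 covered 32.9% of the start window of Trav12d-2, while the nearest H3K9me3 region to that of Trav12n-2 was 3.37 kb away. H3K9me3 covered 66.1% of the window of Trav5d-2, while the nearest region to Trav5n-2 was 3.65 kb away. Trav6n-7 was met by H3K9me1 over 2.40% of its window, by the edge of a 1.5 kb region, and the nearest H3K9me1 region to Trav6d-7 was 311.1 kb away. The part of read placement and of the calling of neighbouring bins in these differences was not tested.

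Start windows met by a mark differed little in base composition. The median GC content was 43.9% over start sites met by H3K9me3, 44.1% for H3K9me2, 43.5% for H3K9me1 and 43.0% with no mark, and the median soft-masked (interspersed repeat) share was 14.7%, 19.2%, 17.8% and 17.0%. Over the 750 bp bins of the array the soft-masked share was higher where H3K9me3 was present (mean 52.3%) than where it was absent (36.7%), and lower where H3K9me1 was present (27.2%) than where it was absent (44.5%). For H3K9me2 it was 44.7% and 42.2%.

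Whole start windows were covered by H3K9me3 at 30 genes, by H3K9me2 at 13 and by H3K9me1 at 8. Among the 10 named first by position for H3K9me3 were Trav7-1 of the distal section and, in the d unit, Trav7d-2, Trav7d-3, Trav6d-4, Trav6d-5, Trav12d-1, Trav13d-1, Trav15d-1-dv6d-1, Trav3d-2 and Trav9d-2. For H3K9me2 they were Trav11d, Trav9d-2, Trav9d-4, Trav15n-1, Trav9n-2, Trav13n-4, Trav15n-3, Trav6-3, Trav7-3 and Trav6-4. At Trav7-3 H3K9me1 also covered the whole window, and at Trav9d-2, Trav15n-1, Trav9n-2 and Trav13n-4 H3K9me3 did. The calls nearest to the limit were Trav16d-dv11, met by H3K9me3 over 1.85% of its window, Trav6n-7 as given above, and Trav9d-1, met by H3K9me3 over 3.30%.

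Of the 44 start sites without a mark, 30 had a region of some list within 5 kb of the window, with a median distance of 2.29 kb (0.006 to 34.1 kb). The nearest misses were Trav5-4 at 0.006 kb, Trav3-4 at 0.044 kb, Trav7-4 at 0.098 kb, Trav6n-5 at 0.12 kb, Trav3-1 at 0.164 kb and Trav6-1 at 0.264 kb. Trav1, the first gene of the array and the V segment of mucosal-associated invariant T cells, had no mark, and H3K9me2 lay 1.18 kb from its window. Trav23, the last gene, had H3K9me1 and H3K9me2, each over 32.6% of the window. The farthest from any region was Trav14-2, at 34.1 kb.

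Subgroups of the symbols held few genes each, and their intervals were wide. H3K9me2 met all 3 Trav11 genes, and no mark met any of the 3 Trav10 genes (0%, interval up to 56.1%). H3K9me3 met 7 of 12 Trav13, 7 of 11 Trav9, 5 of 10 Trav12, 6 of 13 Trav7 and 3 of 9 Trav5 genes. Their intervals overlapped, from 12.1 to 64.6% for Trav5 to 35.4 to 84.8% for Trav9, and each held the 41.4% of all Trav genes. Neither of the other marks met a Trav5 gene. The annotated pseudogenes and the other members had overlapping intervals, with H3K9me3 at 10 of 20 TR_V_pseudogene (29.9 to 70.1%) and 43 of 108 TR_V_gene members (31.1 to 49.2%), H3K9me2 at 5 and 29, and H3K9me1 at 5 and 16.

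Among the 10 genes with dv in the symbol, which the delta chain can also use, each mark met 2 (20%, interval 5.67 to 51.0). That interval held the chromosome 14 shares of 24.4% (H3K9me1), 16.9% (H3K9me2) and 18.3% (H3K9me3). H3K9me3 was at Trav15d-1-dv6d-1 and Trav16d-dv11, H3K9me2 at Trav15-1-dv6-1 and Trav21-dv12, and H3K9me1 at Trav15-1-dv6-1 and Trav13-4-dv7. The other 5, namely Trav15d-2-dv6d-2, Trav14d-3-dv8, Trav15-2-dv6-2, Trav4-4-dv10 and Trav6-7-dv9, had no mark, and their distance to the nearest region was 2.03 kb, 2.55 kb, 25.6 kb, 1.10 kb and 5.90 kb. Of the 6 Trdv genes, which are used by the delta chain alone, H3K9me1 met 3, H3K9me2 3 and H3K9me3 2. The intervals were wide, at 18.8 to 81.2% for H3K9me1 and for H3K9me2 and 9.68 to 70.0% for H3K9me3. Trdv1 and Trdv2-2 had H3K9me1 with H3K9me2, Trdv2-1 had H3K9me2 with H3K9me3, and Trdv3 had H3K9me1 with H3K9me3.

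H3K9me2 and H3K9me3 were absent from the segments that the V genes are joined to. Of 66 D, J and constant segments of the alpha and delta chains, these lists met 0 start sites (0%, interval up to 5.50%). H3K9me1 met 3 (4.55%, 1.56 to 12.5), those of Traj7, Traj6 and Traj5, all by 1 region of 1.5 kb. Over the genes of chromosome 14 the shares were 16.9% (H3K9me2), 18.3% (H3K9me3) and 24.4% (H3K9me1). The segments lay close together and many start windows overlapped, so they were not separate trials. Trac and Trdc, the constant genes of the alpha and delta chains, had no mark at their start sites, nor had Dad1, an oligosaccharyltransferase subunit gene expressed in most cells that lies next to Trac. H3K9me1 covered 1.35% of the 110.7 kb from Trdd1 to the end of Trac, and the other lists 0%. On the other side, the olfactory receptor genes Olfr1513 to Olfr1507, which are expressed in the nose, lay beside and within the start of the array. Of these 7 genes H3K9me2 met 6 (85.7%, interval 48.7 to 97.4), H3K9me1 4 (57.1%, 25.0 to 84.2) and H3K9me3 1 (14.3%, 2.57 to 51.3). H3K9me3 was at Olfr1511 with both other marks. Over the 35 olfactory receptor genes elsewhere on chromosome 14 the shares were 20% (H3K9me2), 8.57% (H3K9me1) and 25.7% (H3K9me3). Of the 15 genes of the flank before Trav1, H3K9me1 met 10 (66.7%, interval 41.7 to 84.8), among them Chd8, Rab2b and Sall2.

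Other antigen receptor V genes lay on chromosomes with few regions. Of 185 Ighv genes on chromosome 12, H3K9me1 met 4, H3K9me2 4 and H3K9me3 6. Of 160 Igkv genes on chromosome 6, H3K9me3 met 1 and the others 0, and none of the 35 Trbv genes on the same chromosome was met. The lists covered 0.171%, 0.156% and 2.69% of chromosome 12 and 0.130%, 0.0179% and 0.687% of chromosome 6 (H3K9me1, H3K9me2, H3K9me3), so these arrays and the Trav array cannot be compared at equal coverage.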

How the data were processed

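ChIP-seq of H3K9me1, H3K9me2, H3K9me3 and input was done in wild-type MEFs, 2 samples per group. According to the methods and the submitters' processing notes, the authors aligned paired reads to mm10 (GRCm38) with BWA 0.7.1 and called regions with histoneHMM. They deposited 1 list of regions per mark (chromosome, start, end), with 42704, 29119 and 27108 regions. How replicates, input and reads with several matches entered the call, and the threshold used, are not given in the sources used here. The input has no list that was analysed here. All positions lay on a grid of 750 bp with 1-based starts.

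GENCODE M21 gave genes and start sites. Every Trav gene was scored, with no filter. Members and lists were chosen with earlier results of these data known. Genes named were the first and last, those with the largest H3K9me2 or H3K9me3 share of the start window (10 each, ties by position), those with all 3 marks, the 6 unmarked nearest to a region, every dv gene, and Trac, Trdc, Dad1 and marked neighbours. Others were chosen after their values were seen. Occurrences of 100-mers were counted in 21 chromosomes. Copies were aligned from 1500 bp before to 500 bp after the 3′ end. Interval scoring was tested on simulated data. Python 3.11.15, NumPy 2.4.6, SciPy 1.17.1, Biopython 1.88 and Matplotlib 3.10.9 were used.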

Additional observations from a re-analysis of the deposited data

How the results depend on the processing

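Over 9 counts and coverage values, 69 alternatives were run, of which 48 stayed within 1.5 times the count or within the 95% Wilson interval of the coverage. That interval took each 750 bp bin as a separate trial, although regions ran up to 48 kb. Staying within it or leaving it is therefore no measure of spread between samples. Regions of at least 5 kb met 8 start sites and 8 bodies for H3K9me1 and 16 and 16 for H3K9me2, and covered 7.57%, 17.4% and 29.0% of the array with flanks (H3K9me1, H3K9me2, H3K9me3). Windows of 5 kb met 32, 62 and 87 start sites. Joining regions up to 5 kb apart raised coverage to 13.9%, 28.3% and 35.2%. Flanks of 500 kb gave 16.02%, 19.4% and 26.3%. Without flanks H3K9me1 covered 9.50% and H3K9me3 39.4%. Over bases whose 100-mer occurs once, coverage was 16.4%, 27.98% and 24.8%, so the lead of H3K9me3 over H3K9me2 was lost there. The cause was not tested.

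Shares by unit were recomputed with those of all Trav start sites under 54 alternatives added after seeing the data, of which 40 stayed within the interval. With windows under 50% repeated, the H3K9me3 share of all Trav start sites was 26.8%. Regions of at least 5 kb met 6.25%, 12.5% and 32.8% of them, and with at least 50% of the window covered H3K9me1 met 10.9% and H3K9me2 17.97%. The H3K9me1 share of d and n start sites fell from 1.37% to 0% with regions of at least 2 kb, of at least 5 kb, windows covered to at least 50% or windows under 50% repeated. Regions of at least 5 kb gave 14.5% of unlettered start sites for H3K9me1, and 8.22% of d and n and 18.2% of unlettered start sites for H3K9me2. With at least 50% of the window covered, H3K9me2 met 20% of unlettered start sites. The H3K9me3 share of d and n start sites ranged from 49.3% to 61.6% and that of unlettered ones from 10.9% to 16.4%.

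No paired analysis was possible because no deposited list held a value for a single replicate. For the same reason leaving out each replicate was not run. Depth is unknown from the lists.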
